A study of Homo sapiens with 36 samples.

Results

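The nuclear-encoded genes of the mitochondrial respiratory chain were followed in 36 RNA-seq libraries of U2OS cells, a human osteosarcoma line, during activation of the integrated stress response. Members were taken by gene name: symbols of the NDUFA, NDUFB, NDUFC, NDUFS and NDUFV series, SDHA to SDHD, symbols starting with UQCR or ATP5, COX symbols numbered 4 to 8 with the letters A to C, CYC1 and CYCS. A summed count of at least 1000 over the 36 libraries was required, and pseudogene names were left out. Of 197 matching names, 79 met the rule, out of 57665 genes in the tables. Pseudogene names made up 106 of the others, and 12 had too few counts. Just inside the count minimum lay the read-through gene ATP5J2-PTCD1 with a summed count of 1616, and just outside it the read-through gene NDUFC2-KCTD14 with 874. The label holds for 75 of the members, which encode a subunit or cytochrome c: 36 for complex I, 4 for complex II, 9 for complex III, 10 for complex IV, 15 for complex V and CYCS. NDUFA4, named for complex I, was placed with complex IV, where its protein is known to sit. The other 4 members are the antisense RNA NDUFA6-AS1, the read-through gene ATP5J2-PTCD1, and ATP5S and ATP5SL, whose proteins are not subunits. The name pattern does not find COX4I1, COX4I2, COX7A2L or NDUFAB1, so the complexes are not covered in full.

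The respiratory chain passes electrons from NADH (complex I) or succinate (complex II) to ubiquinone, from there through complex III and cytochrome c to complex IV, which reduces oxygen, while the ATP synthase, complex V, uses the proton gradient built on the way. Most subunits are encoded in the nucleus and imported, a small set is encoded in mitochondrial DNA, and complex II is entirely nuclear. The factors NRF1, GABP and YY1 and the PGC-1 coactivators are known activators of many of the nuclear genes.

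All cells carried Dmr-PERK, the mouse PERK kinase domain joined to a dimerization domain, and were either wild type (WT) or ATF4 knockout (labelled ATF4KO). Wells were untreated (NT, labelled as 0 h) or received the dimerizer AP20187 (labelled Dim, 1 dose whose unit the labels do not give) for 2, 4, 8, 16 or 24 h, with 3 wells in each of the 12 groups. Dimerized PERK phosphorylates eIF2α, which lowers general translation and raises translation of ATF4, a transcription factor of amino acid supply. Cells lacking Dmr-PERK and untreated wells at later times are not among the groups, and the labels do not say whether the knockout line is 1 clone. The labels do not say whether wells were separate cultures, so the p values measure the spread between wells.

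Library totals ran from 8608783 to 16265056 counts, and the members took 0.57 to 0.80% of them. Levels are given as CPM, the count scaled to a fixed library total, where each total was first adjusted by a TMM scaling factor. Of the osteoblast-lineage markers, RUNX2 (30.3 CPM in untreated WT), COL1A1, SPARC and, at a low level, ALPL (6.46 CPM) were present. SP7, IBSP and BGLAP were at or near 0, as was COL1A2 (0.77 CPM), although COL1A1, the partner chain of its collagen, had 1410 CPM. PTPRC, CD3E, PECAM1 and ALB, markers of blood, endothelium and liver, were at or near 0, and of the epithelial markers KRT18 was high and EPCAM low. ATF4 mRNA was read in both genotypes, so it does not check the knockout label. ASNS and CHAC1, known ATF4 targets, rose in WT at 24 h (ASNS from 61.3 to 429 CPM). In the knockout ASNS stayed low, with 17.3 CPM untreated and 14.9 CPM at 24 h.

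All 79 members were among the 19043 genes tested. The genes described in most detail are spread over the genome (GRCh38, GENCODE 29, whole gene from start to end): CYCS (ENSG00000172115.8) lies at chr7:25120091-25125361, COX7B at chrX:77899438-77907373, COX6B1 at chr19:35648223-35658861, SDHB at chr1:17018722-17054170, SDHC at chr1:161314257-161375340, ATP5G1 at chr17:48892765-48895871 and ATP5G3 at chr2:175176258-175184607. On the length-corrected TPM scale (transcripts scaled to a fixed total), which allows genes to be compared, levels in untreated WT cells spanned from 11.5 ± 0.561 (SD, n = 3) for NDUFV3, a small accessory subunit of complex I, to 569 ± 20.9 for ATP5J2, a membrane subunit of complex V. The median TPM level over the subunit genes of a complex was 278 for complex IV, 209 for complex V, 184 for complex III, 102.5 for complex I and 97 for complex II. Isoforms known from heart, muscle, testis or lung were barely read: COX6A2, COX7B2 and COX8C were at or near 0 CPM, and COX7A1 and COX6B2 stayed below 1 CPM on average at 0 h and 24 h.

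Promoter sequence was available for 61 of the 75 subunit genes, as RefSeq windows of 300 bases (GRCh38.p14, 250 bases before the start and 50 after). The NRF1 core, GCGC and TGCGC with 1 base of any kind between them, was present in 15 of them (24.6%), against 6.28% of all 27305 windows. The ETS core bound by GABP, CCGGAAG, was in 18 (29.5%, against 10.7%), and the YY1 core AAGATGGC in 11 (18.0%, against 3.03%). The C/EBP-ATF composite element TGATGNAA, a form of the ATF4 site, was in 1 window (1.64%, against 3.67%). The CCAAT box was in 20 (32.8%, against 35.7%) and the E-box CACGTG in 7 (11.5%, against 7.43%). Motifs were searched on both strands, and overlapping matches of different motifs were each counted. Windows of genes that were higher at 24 h in both genotypes held the NRF1 core in 6 of 27 and those lower in both in 2 of 10. For the ETS core these counts were 8 and 2, for the YY1 core 7 and 1, and for the E-box 5 and 0. For the CCAAT box they were 9 and 3, and for the C/EBP-ATF element 1 and 0. Differences between these small sets were not tested. A match describes the letters only. The bases before the start are shown for 5 genes on which later results turn, from the largest riser to strong fallers, with NRF1 and ETS cores in capitals, each read 5′ to 3′ on the gene's strand and ending before both the RefSeq and the GENCODE start. CYCS lies on the minus strand (chr7:25125362-25125510), UQCR11 on the minus strand (chr19:1605491-1605690), ATP5H on the minus strand (chr17:75046986-75047185), COX7B on the plus strand (chrX:77899238-77899437) and NDUFB4 on the plus strand (chr3:120596109-120596308).
CYCS: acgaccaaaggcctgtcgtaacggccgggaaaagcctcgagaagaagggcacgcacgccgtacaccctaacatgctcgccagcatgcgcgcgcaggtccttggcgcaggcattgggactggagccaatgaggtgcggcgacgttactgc
UQCR11: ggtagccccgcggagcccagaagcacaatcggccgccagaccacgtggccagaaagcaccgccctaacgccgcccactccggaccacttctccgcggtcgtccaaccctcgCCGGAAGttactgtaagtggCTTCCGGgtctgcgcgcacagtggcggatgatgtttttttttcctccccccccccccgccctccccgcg
ATP5H: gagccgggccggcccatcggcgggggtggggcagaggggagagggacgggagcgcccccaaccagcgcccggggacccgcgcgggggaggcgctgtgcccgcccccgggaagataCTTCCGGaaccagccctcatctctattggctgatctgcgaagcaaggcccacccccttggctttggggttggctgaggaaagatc
COX7B: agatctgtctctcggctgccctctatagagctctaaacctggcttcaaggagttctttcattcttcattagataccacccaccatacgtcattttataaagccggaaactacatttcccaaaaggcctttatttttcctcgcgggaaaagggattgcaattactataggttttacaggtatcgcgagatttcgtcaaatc
NDUFB4: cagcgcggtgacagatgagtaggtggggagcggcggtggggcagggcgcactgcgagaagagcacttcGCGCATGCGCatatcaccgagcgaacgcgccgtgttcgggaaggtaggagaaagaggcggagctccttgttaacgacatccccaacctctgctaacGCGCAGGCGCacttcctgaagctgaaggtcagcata
The shown bases of NDUFB4 held 2 NRF1 cores, those of UQCR11 2 ETS cores and those of ATP5H 1 ETS core. Those of CYCS and COX7B held neither. The full windows of 300 bases held 2 NRF1 cores for UQCR11 and 3 for NDUFB4, so not all of them lay within the shown bases.

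The first question was how the subunit genes moved over the time of PERK activation in WT cells. They fell slightly and broadly in the first 8 h, and from 16 h the set split, with a part above its untreated level and a part still below. At 2 h, 1 of the 79 members rose and 44 fell, against 12.2% of all tested genes higher and 10.4% lower, at an adjusted p under 0.05 (edgeR quasi-likelihood test, Benjamini-Hochberg). The higher one was ATP5S, which is no subunit. By 4 h there were 5 risers and 43 fallers (all genes 23.6% and 21.1%), and by 8 h 9 and 48 (29.7% and 29.6%). Later the 2 sides drew level, with 34 risers and 28 fallers at 16 h (33.7% and 32.8%) and again at 24 h (33.0% and 32.4%), so at 16 and 24 h the members were called in each direction at shares not far from those of all genes. The changes were small: the median log2 change of the 75 subunit genes was −0.14 at 2 h, −0.15 at 4 h, −0.19 at 8 h, 0.01 at 16 h and 0.02 at 24 h, and that of all tested genes lay between −0.02 and −0.01. The count at 2 h rested in part on 1 well, since 28 members were lower without untreated WT replicate 1, and with log2(TPM + 1) 8 were.

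The knockout also declined early, and more of its members rose late. At 2 h NDUFA6 alone rose and 13 of 79 fell (all genes 9.85% and 8.5%), a count that became 6 without untreated knockout replicate 3, 7 with DESeq2 and 3 with log2(TPM + 1) without the third untreated knockout column. By 4 h there were 3 risers and 50 fallers (22.1% and 20.3%), by 8 h 17 and 36 (30.7% and 31.1%), by 16 h 47 and 18 (33.0% and 32.7%), and by 24 h 51 and 17 (32.4% and 33.0%). The median change of the 75 subunit genes was −0.10 at 2 h, −0.18 at 4 h, −0.08 at 8 h, 0.16 at 16 h and 0.23 at 24 h. With log2(TPM + 1), 9 members were called risers at 8 h and 31 at 16 h. Within a genotype, all times share the same 3 untreated wells, so the counts at different times are not independent of each other.

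**Figure D1:**
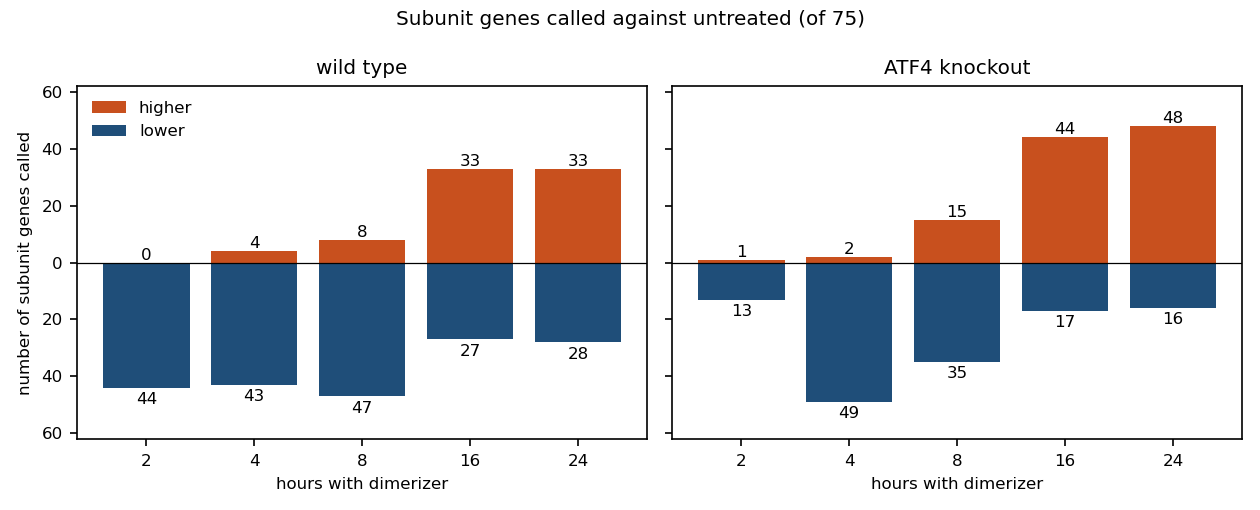
Number of the 75 subunit genes called higher (up) or lower (down) than untreated at an adjusted p under 0.05, by hours with dimerizer, in wild type (left) and ATF4 knockout (right). Falls outnumber rises up to 8 h in both genotypes. At 24 h wild type has 33 rises and 28 falls, and the knockout 48 and 16.

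Summed over the 75 subunit genes, the level in WT was 6522, 6316 and 6447 CPM in the untreated wells, 5900, 5840 and 6040 CPM at 8 h, and 6936, 6890 and 6883 CPM at 24 h. All 3 wells at 8 h were below the untreated ones and all 3 at 24 h above them. In the knockout the sum was 6091, 6124 and 6053 CPM untreated, 5526, 5553 and 5566 CPM at 4 h, its lowest time, and 7581, 7632 and 7893 CPM at 24 h. These groups did not overlap. At 8 h the knockout had 6117, 5991 and 6066 CPM, which overlapped its untreated wells. Its 8 h mean was 0.995 of untreated, against 0.922 in WT, and on the TPM scale 0.907 against 0.898. Relative to the untreated mean, the sum at 24 h was 1.074 in WT and 1.265 in the knockout. On the TPM scale these ratios were 1.021 and 1.11, with a wide spread of the untreated knockout columns (13960 ± 925 TPM, SD, n = 3), which did not match their counts. These are relative levels within the RNA of a well, and a CPM says nothing of the amount of RNA in the well. Fewer cells and less RNA per cell cannot be told apart. Over the same course the share of counts on mitochondrial genes went down, from 5.65 to 5.70% in untreated WT to 4.79 to 4.92% at 24 h, and from 5.72 to 5.86% to 4.50 to 4.57% in the knockout, and the part of this shift in the members' shares was not tested.

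**Figure D2:**
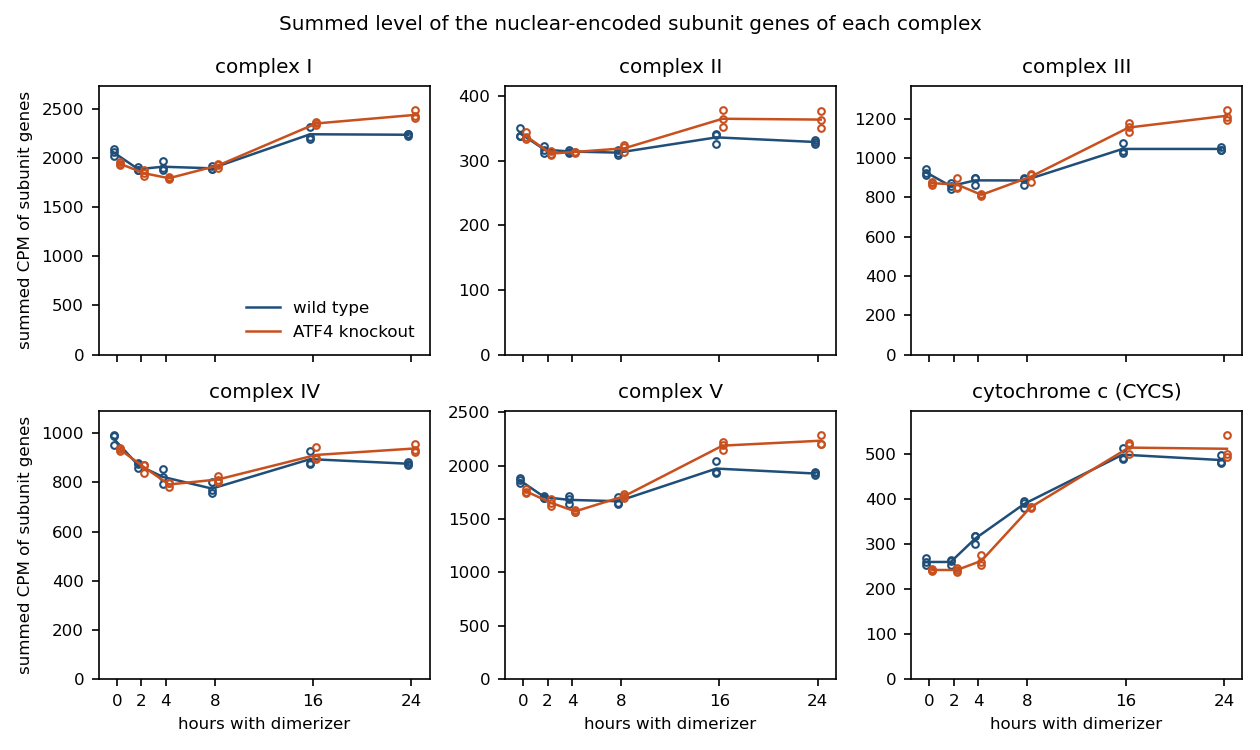
Summed CPM (vertical axis, from 0) of the subunit genes of each complex, and of CYCS, against hours with dimerizer. Circles are single wells and lines join the group means of wild type (blue) and ATF4 knockout (orange), so that the dip of complex IV (lowest at 8 h in wild type and at 4 h in the knockout), the later rise in complexes I, III and V, and the early rise of CYCS can be seen.

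The complexes did not follow 1 course. Complex IV, cytochrome c oxidase, declined most widely at 8 and 24 h in WT. In WT 9 of its 10 genes were lower at 8 h (all genes 29.6%) and 7 at 24 h (32.4%). Its median change was −0.36 at 8 h and −0.28 at 24 h. Its summed level went from 978.3 ± 21.5 (SD, n = 3) CPM untreated to 775 ± 22.9 at 8 h and 876.1 ± 6.52 at 24 h. In the knockout all 10 were lower at 4 h (all genes 20.3%). At 24 h 6 were lower and 3 higher (33.0% and 32.4%), with a median of −0.16. The 3 that rose at 24 h in both genotypes were COX5A, COX6A1 and COX8A. The summed level in the knockout went from 934.3 ± 6.7 CPM untreated to 791.7 ± 9.61 at 4 h and 938.2 ± 17.2 at 24 h. Its 24 h sum was thus 1.004 of untreated in CPM, and 0.95 on the TPM scale. The early fall was not particular to complex IV. Complex V had 12 of its 15 genes lower at 2, 4 and 8 h in WT (all genes 10.4%, 21.1% and 29.6%). At 4 h in the knockout 13 of the complex V genes were lower (20.3%).

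COX7B, a small structural subunit of complex IV, had 69.3, 64.8 and 70.7 CPM in the untreated WT wells, 38, 38.4 and 42 CPM at 8 h and 49.6, 49.5 and 46.7 CPM at 24 h. The groups did not overlap, and the lowest level was at 8 h. It fell by 0.79 ± 0.06 (SE) on the log2 scale at 8 h (adjusted p = 5.8e-16). In the knockout it had 64.9, 71 and 65.8 CPM untreated, 48, 46.2 and 46.1 CPM at 8 h and 58.5, 57.9 and 62.1 CPM at 24 h, so the knockout wells stood above the WT wells at both treated times. COX6B1, which joins the complex IV monomers, had 58, 53.3 and 58.5 CPM in untreated WT and 34.4, 36.4 and 38.5 CPM at 24 h, and fell by 0.65 ± 0.07, the largest fall of a subunit gene at 24 h in WT. In the knockout it went from 55.7, 53.8 and 52.8 CPM to 37.2, 41 and 46 CPM, a fall of 0.37 ± 0.07 with no overlap. COX5A, a matrix-side subunit, moved the other way, from 57.9, 56.2 and 56.3 CPM to 73.3, 77.1 and 73.5 CPM in WT (0.40 ± 0.05) and from 50.3, 56.5 and 54 CPM to 86.1, 86.4 and 86.1 CPM in the knockout (0.68 ± 0.05).

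CYCS, cytochrome c, which carries electrons to complex IV and triggers apoptosis when released, rose early and most in WT. It had 268, 253 and 259 CPM untreated, 319, 318 and 300 CPM at 4 h, 391, 380 and 396 CPM at 8 h and 496, 482 and 481 CPM at 24 h in WT. Each of these groups lay above the one before without overlap. The 16 h wells, with 489.5, 514.2 and 491.4 CPM, overlapped those at 24 h, so no further rise was seen after 16 h. The change at 24 h was 0.90 ± 0.03 on the log2 scale (adjusted p = 4.8e-26). In the knockout CYCS went from 241, 244 and 242 CPM to 382, 380 and 382 CPM at 8 h and 499, 493 and 542 CPM at 24 h, a rise of 1.08 ± 0.03. CYCS, CYC1 and ATP5G1 were the 3 subunit genes whose log2 change exceeded 1 at any time in either genotype, in each case in the knockout.

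Complex III, the cytochrome bc1 complex, had a median change of 0.03 in WT at 24 h and of 0.38 in the knockout. In WT 3 of its 9 genes were higher and 3 lower, near the shares of all genes (33.0% and 32.4%). In the knockout 7 of the complex III genes were higher and 1 lower (32.4% and 33.0%). CYC1, its cytochrome c1 subunit, had 215, 214 and 208 CPM in untreated WT, 336, 340 and 352 CPM at 24 h, and in the knockout 196, 191 and 179 CPM untreated and 408, 402 and 424 CPM at 24 h. The untreated knockout wells were the lowest and its 24 h wells the highest of these groups. The rise was 0.69 ± 0.03 in WT and 1.13 ± 0.03 in the knockout. UQCRB, a ubiquinone-binding subunit, fell in both, from 98.3, 99.2 and 99 CPM to 65.9, 63.9 and 67 CPM in WT (−0.59 ± 0.05) and from 104, 106 and 113 CPM to 77, 82.7 and 80.5 CPM in the knockout (−0.43 ± 0.05). UQCR11, a small accessory subunit, had 36.1, 34.1 and 33.7 CPM in untreated WT and 41.8, 40.3 and 41.3 CPM at 24 h (0.24 ± 0.06), and 33.4, 33.6 and 32.9 CPM and 47.8, 51.8 and 51.2 CPM in the knockout (0.60 ± 0.06). Its groups did not overlap in either genotype. UQCR10, another small subunit, fell by 0.23 ± 0.06 in WT and rose by 0.23 ± 0.06 in the knockout at 24 h. With log2(TPM + 1) in limma that knockout rise was 0.07 and was lost (adjusted p = 0.47).

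The 4 genes of complex II, succinate dehydrogenase, went in different directions although their products form 1 enzyme. SDHB, the iron-sulfur subunit, had 66, 60.2 and 61.5 CPM in untreated WT and 79.5, 83.5 and 79.3 CPM at 24 h, and 59.3, 57.5 and 56.9 CPM in the untreated knockout and 91.3, 95.2 and 96.6 CPM at 24 h. It rose by 0.36 ± 0.04 in WT and 0.71 ± 0.04 in the knockout, with no overlap in either. SDHC, a membrane anchor that binds heme and ubiquinone, fell from 130, 129 and 128 CPM to 95, 91 and 89.4 CPM in WT (−0.49 ± 0.04) and from 130, 137 and 136 CPM to 97.1, 100 and 105 CPM in the knockout (−0.41 ± 0.04). SDHD, the other anchor, rose by 0.24 ± 0.05 in WT and 0.41 ± 0.05 in the knockout.

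SDHA, the flavoprotein subunit, was lower at 8 h in both genotypes and partly returned. In WT it had 69.7, 67.3 and 70.4 CPM untreated, 52.5, 54.9 and 52.4 CPM at 8 h and 58.7, 61.7 and 60.7 CPM at 24 h (−0.20 ± 0.05). In the knockout it had 72.3, 67.9 and 68.9 CPM untreated and 66.1, 66.7 and 68.8 CPM at 24 h, where the groups overlapped and the change did not pass (−0.05 ± 0.04, adjusted p = 0.35). With log2(TPM + 1) that fall passed (−0.29, adjusted p = 0.00087, limma; −0.18 and 0.015 without the third untreated knockout column).

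Complex I, NADH dehydrogenase, had 18 genes higher, 11 lower and 7 not called of 36 in WT at 24 h. Of all genes 33.0% were higher and 32.4% lower, so the fallers were near the share of all genes. In the knockout 22 were higher, 8 lower and 6 not called (all genes 32.4% higher and 33.0% lower). NDUFB9, an accessory membrane subunit, rose most, from 165, 160 and 164 CPM to 261, 259 and 252 CPM in WT (0.66 ± 0.03) and from 153, 158 and 160 CPM to 285, 291 and 309 CPM in the knockout (0.91 ± 0.03). NDUFA2, an accessory subunit of the matrix arm, fell from 29.6, 26.2 and 27.3 CPM to 16.5, 14.4 and 16.3 CPM at 8 h in WT and from 29.1, 29.7 and 23.7 CPM to 16.3, 13.1 and 16.3 CPM in the knockout. Its log2 change at 8 h was −0.83 ± 0.08 in each genotype, the largest fall of any subunit gene, and at 24 h it was −0.59 ± 0.08 and −0.55 ± 0.08. NDUFB4, another membrane subunit, started lower in the knockout, with 54.2, 52.1 and 54.3 CPM against 73.6, 74.5 and 75.5 CPM in WT. It fell to 47.3, 49.8 and 50.5 CPM in WT (−0.60 ± 0.05) and 41.6, 39.6 and 44.8 CPM in the knockout (−0.35 ± 0.05). Of the core subunits that carry the flavin or iron-sulfur clusters, NDUFS1, NDUFS7 and NDUFV1 were higher at 24 h in both genotypes, NDUFS8 was higher in the knockout and not called in WT, and NDUFV2 was lower in WT and higher in the knockout. NDUFV2 shares sequence with a pseudogene that was itself well counted, NDUFV2P1, so its level is uncertain, and its WT fall (−0.12) no longer passed when any of 4 single wells was left out.

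Complex V, the ATP synthase, had 6 genes higher and 5 lower of 15 at 24 h in WT (all genes 33.0% and 32.4%). In the knockout 13 were higher and 0 lower (32.4% and 33.0%). The 0 lower was also 0 with DESeq2 and at an unadjusted p under 0.05 by edgeR. The symbols of complex V here are the older ones, for example ATP5A1 for ATP5F1A and ATP5G1 for ATP5MC1. The catalytic subunit gene ATP5B rose by 0.24 in WT, from 365, 354 and 356 CPM to 424, 432 and 418 CPM, and by 0.55 in the knockout, from 341, 356 and 340 CPM to 488, 503 and 524 CPM. ATP5H, a stator stalk subunit, first fell and then rose in WT, with 88.7, 77.4 and 84 CPM untreated, 67, 71.9 and 67.7 CPM at 8 h (−0.28 ± 0.05) and 91.8, 89.3 and 89.4 CPM at 24 h (0.10 ± 0.04), and in the knockout went from 78.8, 79.7 and 81.1 CPM to 97.6, 98.6 and 97.9 CPM (0.29 ± 0.04). ATP5A1, ATP5C1 and ATP5E, for the alpha, gamma and epsilon subunits of the same F1 part, were lower in WT (−0.11, −0.23 and −0.10) and higher in the knockout (0.18, 0.16 and 0.15). These knockout rises were lost with log2(TPM + 1) (0.01, 0.01 and 0.06), and those of ATP5C1 and ATP5E also without the third untreated knockout column.

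ATP5G1, ATP5G2 and ATP5G3 encode the same mature c subunit of the membrane ring. ATP5G1 had 31.3, 28.6 and 33 CPM in untreated WT, 20.2, 22.9 and 20.7 CPM at 4 h and 54.4, 47.6 and 48.5 CPM at 24 h, so it first fell (−0.56) and then rose (0.69 ± 0.06). In the knockout it had 20.8, 23.4 and 22.4 CPM untreated and 45.2, 48.4 and 51.5 CPM at 24 h (1.12 ± 0.07). The 24 h levels of the genotypes overlapped, and the untreated ones did not. ATP5G3 had 118, 117 and 120 CPM in untreated WT and 88, 88.1 and 92.7 CPM at 24 h, and fell by 0.41 ± 0.04. In the knockout it went from 100, 106 and 103 CPM to 113, 112 and 110 CPM and rose by 0.11 ± 0.04 (adjusted p = 0.0071), a rise that with log2(TPM + 1) in limma turned to −0.02 (adjusted p = 0.82). ATP5G2 was 0.10 higher in WT and 0.15 higher in the knockout.

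**Figure D3:**
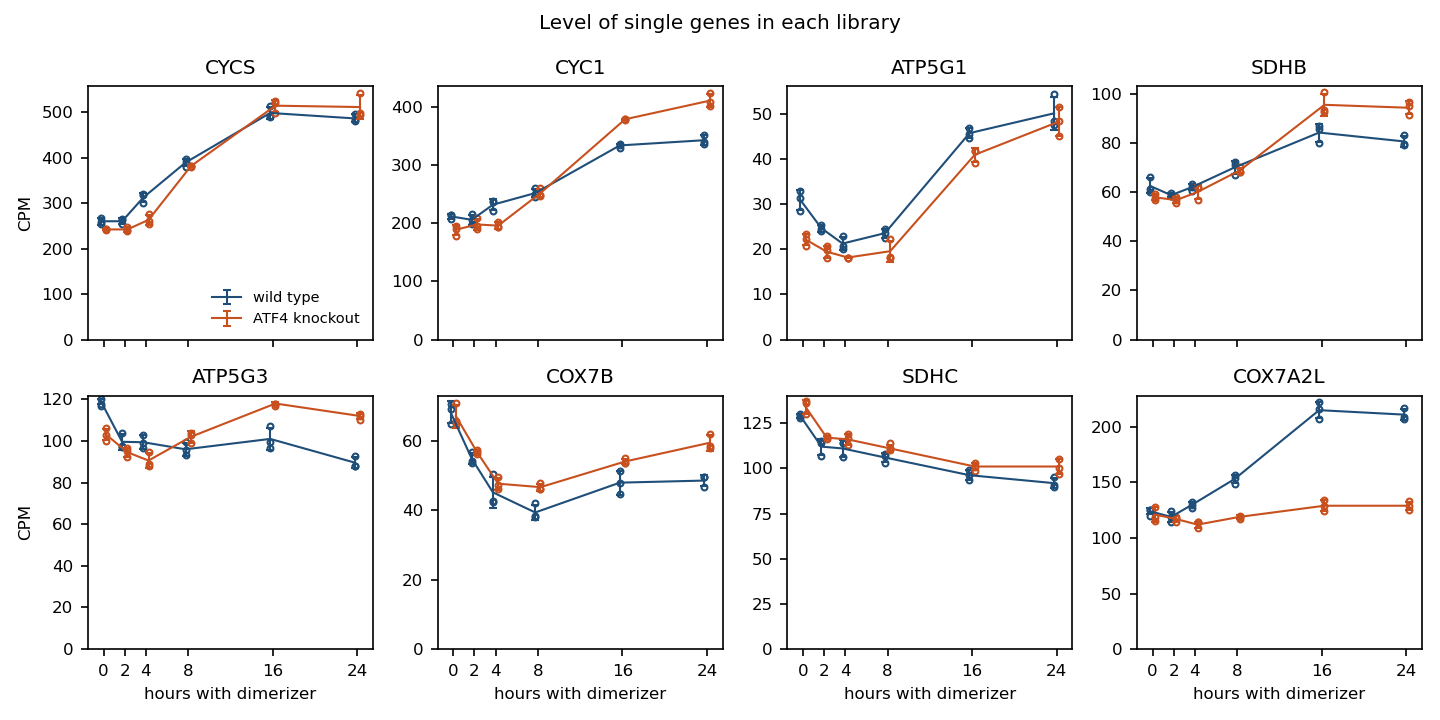
Level in CPM (vertical axes, from 0) of 7 subunit genes and of COX7A2L against hours with dimerizer. Circles are single wells, lines join group means and bars are the SD over 3 wells, for wild type (blue) and ATF4 knockout (orange). CYCS climbs from 4 h, ATP5G1 dips before it rises, COX7B is lowest at 8 h in both genotypes, and COX7A2L reaches 211 CPM in wild type against 129 CPM in the knockout at 24 h.

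The members were next compared between 8 h and 24 h. Over this later step 48 of 79 rose and 4 fell in WT (all genes 23.2% and 22.9%), and 63 rose and 2 fell in the knockout (26.0% and 25.5%). The subunit genes that fell were SDHC in both genotypes and ATP5G3 in WT. Of the 47 subunit genes lower at 8 h in WT, 28 rose from 8 to 24 h, and 9 ended above untreated, among them ATP5G1, ATP5H, COX6A1 and NDUFS6. In the knockout 26 of 35 rose from 8 h, and 11 ended above untreated. Of the 75 subunit genes, 25 were lower at all of 4, 8, 16 and 24 h in WT (all genes 13.3%) and 14 in the knockout (12.8%). Those higher at all of 8, 16 and 24 h were 6 in WT (all genes 21.9%), namely CYC1, CYCS, NDUFS1, NDUFS4, NDUFV3 and SDHB, and 15 in the knockout (21.6%). Since the 8 h wells are shared, these counts belong together with those against untreated. Genes lower at 8 h were chosen by the same 8 h wells from which the later step starts, which by itself favours a rise. The share of all genes lower at 8 h that then rose was not counted.

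Whether the course depended on ATF4 was asked by subtracting the WT change from the knockout change. At 2 h (all genes 0.0105% higher and 0.289% lower) and at 4 h (0.887% and 2.39%) 0 members differed by edgeR or DESeq2. At an unadjusted p under 0.05 the edgeR fit had 8 higher and 0 lower at 2 h, and 1 higher and 3 lower at 4 h. The knockout change was higher for 13 members and lower for 0 at 8 h (all genes 11.3% and 6.99%), higher for 31 and lower for 1 at 16 h (16.7% and 11.0%), and higher for 48 and lower for 1 at 24 h (17.7% and 12.1%). The 0 at 8 h was also 0 with DESeq2 and at an unadjusted p under 0.05. The lower one at 16 and 24 h was NDUFA6-AS1, so 0 subunit genes were lower at 24 h (0 also with DESeq2 and at an unadjusted p under 0.05), while 47 of 75 were higher. The median difference of the 75 subunit genes at 24 h was 0.22, against 0.05 for all tested genes, and 70 of the 75 were positive. These counts depended on the wells and the unit. The 13 at 8 h became 2 without untreated WT replicate 1, and 0 with log2(TPM + 1). The 48 at 24 h became 34 without 24 h knockout replicate 3, 8 with log2(TPM + 1) and 25 when the third TPM column of the untreated knockout, which did not match its counts, was also left out, and the 31 at 16 h became 5 and 15 in the same 2 fits.

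By complex, the 24 h difference was called higher for 18 of 36 genes in complex I and 2 of 4 in complex II. It was called higher for 8 of 9 in complex III, 7 of 10 in complex IV, 11 of 15 in complex V, and CYCS (all genes 17.7%). The medians were 0.20, 0.16, 0.29, 0.18 and 0.30 for complexes I to V. Of the 29 accessory subunit genes of complex I, 11 were called, with a median of 0.16. The largest difference of a subunit gene was that of ATP5G3 (0.52 ± 0.05, adjusted p = 1.4e-10), followed by UQCR10 (0.47 ± 0.08), ATP5G1 (0.44 ± 0.09) and CYC1 (0.43 ± 0.05). SDHB had 0.34 ± 0.06, NDUFB9 0.25 ± 0.05, COX5A 0.29 ± 0.07 and COX7B 0.32 ± 0.07. For NDUFA2 (0.04 ± 0.11) and SDHC (0.08 ± 0.05) the difference did not pass. CYCS had 0.18 ± 0.05 (adjusted p = 0.0026), which no longer passed without 24 h knockout replicate 3 (0.11, adjusted p = 0.072), as did NDUFB4 (0.25, and 0.17 without that well). COX6B1 (0.27 ± 0.10, adjusted p = 0.037) and SDHD (0.18 ± 0.07, adjusted p = 0.048) lost their calls with DESeq2 and when any of 8 single wells was left out. With log2(TPM + 1) the differences of ATP5G3, UQCR10, CYC1, ATP5O and NDUFV2 still passed, and those of ATP5A1, ATP5B, ATP5C1, ATP5E, ATP5F1, ATP5G1, COX5A, COX6B1, CYCS, NDUFA6-AS1, NDUFB4, NDUFB9, SDHB and SDHD did not. Without the third untreated knockout column as well, those of ATP5E, COX5A, COX6B1, NDUFA6-AS1, NDUFB4 and SDHD were still lost.

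The direction at 24 h, set side by side for the 75 subunit genes, was higher in both genotypes for 31 (25.7% of all tested genes) and lower in both for 15 (25.2%). It was lower in WT and higher in the knockout for 6 (ATP5A1, ATP5C1, ATP5E, ATP5G3, NDUFV2 and UQCR10; all genes 1.06%) and the reverse for 0 (1.82%). Another 11 were higher in the knockout and not called in WT, 7 were lower in WT and not called in the knockout, 2 (NDUFA5 and NDUFA13) were higher in WT and not called in the knockout, NDUFB5 was lower in the knockout and not called in WT, and ATP5L and NDUFB7 were called in neither. The genotype difference itself was not called for NDUFA5, NDUFA13 or NDUFB5. Of the 47 genes with a higher knockout change, 22 were higher in both genotypes and 7 lower in both. The fall of ATP5E in WT (−0.10) no longer passed without untreated WT replicate 1 (adjusted p = 0.23) or without 24 h replicate 2 or 3.

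**Figure D4:**
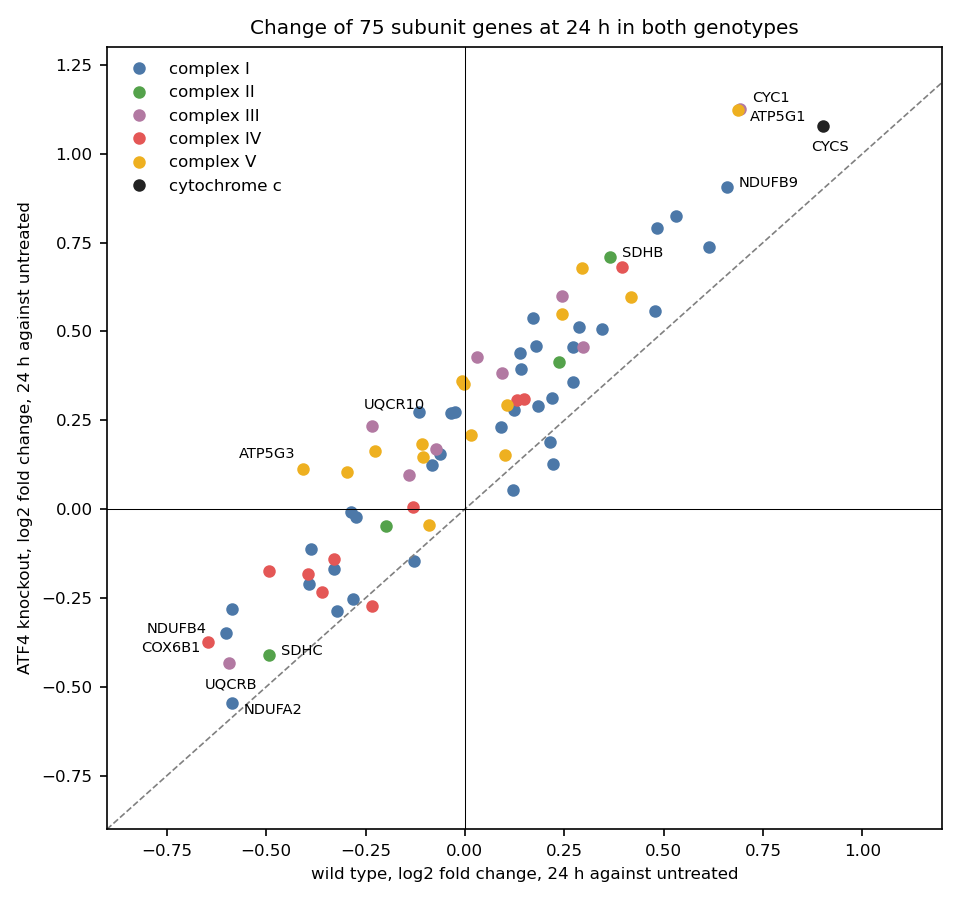
Log2 fold change at 24 h against untreated of the 75 subunit genes in wild type (horizontal) and in ATF4 knockout (vertical), from the fit of all libraries, coloured by complex. The dashed line marks equal change. Of the 75 points, 70 lie above it, and complex IV points (red) are mostly at the lower left.

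The genotypes were also compared directly. In untreated cells the knockout was above WT for 1 of 79 members and below it for 17 (all genes 11.6% and 11.9%), with the largest differences for ATP5G1 (−0.48 ± 0.07, and −0.26 with an adjusted p of 0.052 by limma on log2(TPM + 1)) and NDUFB4 (−0.48 ± 0.05). The higher one was UQCRB (0.13 ± 0.05, adjusted p = 0.027), a call lost with DESeq2 (adjusted p = 0.053). The count of 17 was 9 without untreated WT replicate 1, 1 with log2(TPM + 1) and 5 when the third untreated knockout column was also left out. At 24 h the knockout was above WT for 39 and below it for 2 (22.4% and 15.6%), the lower ones being NDUFB4 (−0.23 ± 0.06) and NDUFA6-AS1. Of the 47 subunit genes with a higher knockout change at 24 h, 34 were above WT at 24 h, and 14 had been below WT when untreated. ATP5G1 and CYCS belong to the latter only: at 24 h they differed from WT by −0.05 ± 0.06 and 0.07 ± 0.03, neither of which passed. ATP5G3, ATP5J2, ATP5O, CYC1, NDUFS1 and NDUFV2 were lower untreated and higher at 24 h. The difference in change equals the genotype difference at 24 h minus that in untreated cells. The counts of 34 and 14 therefore follow in part from how the 47 were chosen, and their shares over all genes were not counted.

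Of the 4 members that are not subunits, ATP5S, known as factor B, rose in both genotypes, from 40.4, 40 and 42.2 CPM to 80.4, 79 and 80.9 CPM at 8 h in WT, and was 0.72 ± 0.05 (WT) and 0.81 ± 0.05 (knockout) above untreated at 24 h. NDUFA6-AS1 had 11.5, 10.8 and 10.1 CPM in the untreated knockout and 5.47, 6.42 and 4.94 CPM at 24 h, and fell by 0.93 ± 0.12, while in WT its change was −0.25 ± 0.12 (adjusted p = 0.061). NDUFA6, its neighbour on the other strand, rose in both genotypes, by 0.48 and 0.79. NDUFA6-AS1 (NDUFA6-DT in GENCODE 29) spans chr22:42090931-42137742 and NDUFA6 chr22:42085525-42090955, so they overlap only at their starts. The sources do not state whether the quantification used the strand that the library kit keeps. Reads within that short overlap may therefore have been mixed. ATP5J2-PTCD1 overlaps ATP5J2 and scattered from 0.533 to 4.15 CPM between untreated knockout wells, so its values are uncertain.

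Other genes of the pathway gave a frame for these values, from lists chosen with earlier results of these data known. Assembly factors build the complexes without staying in them. Of 50 tested, 34 were higher and 4 lower at 24 h in WT (all genes 33.0% and 32.4%). In the knockout 36 were higher and 4 lower (32.4% and 33.0%). Their median log2 changes were 0.40 in WT and 0.47 in the knockout, against −0.02 and −0.03 for all genes. They were already higher at 8 h, with 32 higher and 6 lower in WT (all genes 29.7% and 29.6%), when the subunit genes were mostly lower. NDUFAF2, a complex I assembly factor, rose by 1.58 ± 0.07 in WT and 1.54 ± 0.07 in the knockout, and COA7 for complex IV by 0.79 ± 0.05 and 0.96 ± 0.05. COX19, a copper-handling factor of complex IV, rose less in the knockout (1.28 ± 0.08 in WT, 0.77 ± 0.08 in the knockout, difference −0.51, adjusted p = 0.00027). PET100, which helps assemble complex IV, was lower in both (−0.93 ± 0.10 and −0.96 ± 0.10).

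Of 13 regulators of these genes and of mitochondrial transcription, 11 were higher and 2 lower in WT at 24 h (all genes 33.0% and 32.4%). In the knockout 10 were higher and 2 lower (32.4% and 33.0%). ESRRA, a nuclear receptor that binds many of these promoters, rose from 30.1 ± 1.56 to 67 ± 0.595 CPM in WT and from 32.8 ± 1.4 to 76.3 ± 0.714 CPM in the knockout. TFAM, the packaging and transcription factor of mitochondrial DNA, rose by 0.42 ± 0.04 and 0.44 ± 0.04. NRF1 mRNA rose from 16.2 to 20.8 CPM in WT, and GABPA, the DNA-binding subunit of GABP, was lower by 0.16 and 0.15. PPARGC1B, a PGC-1 coactivator gene, rose from 2.49 ± 0.408 to 4.75 ± 0.742 CPM in WT and from 2.27 ± 0.672 to 8.93 ± 1.41 CPM in the knockout (difference 1.09 ± 0.28, adjusted p = 0.0025). PPARGC1A, its relative, was barely read and fell from 0.545 ± 0.158 to 0.178 ± 0.0314 CPM in WT (−1.60 ± 0.72, adjusted p = 0.04) and from 1.16 ± 0.52 to 0.199 ± 0.142 CPM in the knockout (−2.39 ± 0.60, adjusted p = 0.00042).

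The 13 subunits encoded in mitochondrial DNA were all lower at 8 h in both genotypes (all genes 29.6% lower in WT and 31.1% in the knockout). At 24 h MT-ND1 and MT-ND2 were higher and the other 11 lower in both (all genes 32.4% and 33.0% lower). The medians of the 13 were −0.17 in WT and −0.26 in the knockout, against −0.02 and −0.03 for all genes. Both had the opposite sign to the knockout median of the nuclear genes. MT-CO1, a catalytic subunit of complex IV, had 13800, 14000 and 14200 CPM in untreated WT and 11400, 11100 and 11400 CPM at 24 h (−0.31 ± 0.02), and 15200, 15400 and 15300 CPM and 10800, 10800 and 11200 CPM in the knockout (−0.49 ± 0.02). Its knockout change was lower than its WT change (−0.18 ± 0.03, adjusted p = 1.2e-06).

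Of the chain genes that the name pattern does not find, COX4I1, the common subunit 4 of complex IV, had a WT change of −0.07 that did not pass (adjusted p = 0.063) and rose by 0.13 in the knockout. COX7A2L, which helps join complexes III and IV into supercomplexes, differed from the members in its course. It had 125, 125 and 120 CPM in untreated WT, 149, 154 and 157 CPM at 8 h and 217, 209 and 207 CPM at 24 h, and rose by 0.77 ± 0.04. In the knockout it had 115, 119 and 128 CPM untreated and 129, 125 and 133 CPM at 24 h, where the groups overlapped and the change was 0.09 ± 0.04 (adjusted p = 0.045). The difference was −0.69 ± 0.05 (adjusted p = 2.6e-14), the opposite sign to those called among the 75 subunit genes.

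Transcript length was set beside the changes as a property that the name rule did not use. The coding transcripts of the 75 subunit genes had a median of 750 bases, against 2577.5 over the 14290 tested genes with a coding transcript in GENCODE 29. The 31 genes higher at 24 h in both genotypes had a median of 861 bases and the 15 lower in both 632.5. Across the 75 subunit genes the log2 change at 8 h in WT went with length (Pearson r 0.46 against log2 length, Spearman rho 0.51), as it did in the knockout (0.45 and 0.49), and less so at 24 h (rho 0.35 and 0.32). Across the 14290 genes the WT values at 8 h were −0.03 (r) and −0.01 (rho), and rho at 24 h was −0.05. For the 24 h difference between genotypes rho over the subunit genes was −0.01. These are correlations across genes, which share libraries and are not replicates, and the part of transcript length in the changes was not tested.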

How the data were processed

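The submitters deposited 2 gene tables over 36 libraries, with expected counts and TPM, estimated by the authors with Salmon 0.9.1 on GRCh38 after FastQC 0.11.5, per the submitters' processing notes. Annotation release, strand setting and any trimming are not given in the sources used here. Per the labels' protocols, libraries were directional. Expected counts as deposited were rounded, filtered with filterByExpr by group and scaled by TMM. A mean per group was fitted to all 36 libraries with edgeR 4.0.16 (quasi-likelihood F-test, R 4.3.3), with Benjamini-Hochberg adjustment within each contrast over 19043 genes and calls at an adjusted p under 0.05. Log2 changes carry SE, and CPM and TPM carry SD with n = 3.

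For the untreated knockout, the deposited TPM columns did not match the count columns of the same name best, unlike the other 33 libraries. Their r with the own column was 0.909, 0.931 and 0.495 for replicates 1 to 3. TPM therefore served for levels per length and as an alternative. Fits without the third column still held the other columns that did not match best. In simulated data for WT at 24 h over 18431 genes, 74 of 100 changes of 0.5 and 92 of 100 of 1 in log2 were called, and 7 of 18231 unchanged genes. Far fewer genes were changed there than were called in the data, and they were drawn from all but the lowest levels. These shares therefore do not measure the sensitivity for the members.

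Members, lists and alternatives were chosen with earlier results of these data known. Genes were named by rule: the largest riser and faller per complex at 24 h in each genotype, the smallest adjusted p for the genotype differences, SDHA to SDHD, CYC1, CYCS, opposite calls at 24 h, and up to 3 per list. COX7B, NDUFA6, PPARGC1B, NRF1, PET100 and others singled out beyond it were chosen after their values were seen. Positions are from GENCODE 29 and RefSeq. The fits were repeated with limma 3.58.1 on log2(TPM + 1) or log2(TPM + 0.1), DESeq2 1.42.0, RLE scaling, the replicate block, only the groups compared, no filter, and each library left out. A result on 1 member is not reported here.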

Additional observations from a re-analysis of the deposited data

Results flagged for a closer look

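The change at 24 h differed between the genotypes, by the edgeR quasi-likelihood test of the difference itself, for 19 of the genes named by rule. The knockout change minus the WT change, in log2, was positive for the complex V genes ATP5A1 (0.29), ATP5B (0.30), ATP5C1 (0.39), ATP5E (0.25), ATP5F1 (0.38), ATP5G1 (0.44), ATP5G3 (0.52) and ATP5O (0.37). It was also positive for the complex III genes CYC1 (0.43) and UQCR10 (0.47), the complex IV genes COX5A (0.29) and COX6B1 (0.27), CYCS (0.18), the complex II genes SDHB (0.34) and SDHD (0.18), and the complex I genes NDUFB4 (0.25), NDUFB9 (0.25) and NDUFV2 (0.39). It was negative for the antisense RNA NDUFA6-AS1 (−0.68). Several of these genes were named because of this difference, so their number is no share of a wider set. Groups of 3 wells were not searched for outlying wells.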

How the results depend on the processing

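Of the counts of members called, all were within 1.5 times under RLE scaling and under the replicate block. With log2(TPM + 1), and alike with log2(TPM + 0.1), WT had 0 risers and 8 fallers at 2 h (1 and 44 by edgeR) and 2 risers at 4 h (5). In the knockout the risers were 9 at 8 h (17) and 31 at 16 h (47). The knockout change was higher for 0 at 8 h (13), 5 at 16 h (31) and 8 at 24 h (48), and lower for 0 at 16 h and 24 h (1 each), while at 4 h log2(TPM + 0.1) gave 1 lower (0). The untreated knockout had 0 higher and 1 lower (1 and 17), and from 8 to 24 h 1 fell in WT (4) and 1 in the knockout (2). When the third TPM column of the untreated knockout was left out, WT had 0 risers and 17 fallers at 2 h, the knockout 3 fallers at 2 h (13) and 5 risers at 4 h (3), the difference was higher for 1, 15 and 25 at 8, 16 and 24 h and lower for 0 at 16 and 24 h, the untreated knockout had 5 lower, and 2 (WT) and 1 (knockout) fell from 8 to 24 h. DESeq2 gave 0 risers at 2 h in WT, 7 fallers at 2 h in the knockout, 0 higher in the untreated knockout and 2 falling from 8 to 24 h in WT. With no filter on low counts there were 0 risers at 2 h in WT, 2 risers and 8 fallers at 2 h in the knockout (1 and 13), and 1 falling from 8 to 24 h in the knockout. With only the compared groups in the fit there were 0 risers at 2 h in the knockout and 2 lower differences at 16 h. Counting subunit genes alone gave 0 risers at 2 h in WT, 0 lower differences at 16 and 24 h, 1 lower in the knockout at 24 h (2), and 2 (WT) and 1 (knockout) falling from 8 to 24 h. Adding COX4I1, COX4I2 and COX7A2L gave 1 lower difference at 8 h and 2 each at 16 and 24 h. Leaving out 1 library at a time gave 0 to 1 risers and 28 to 42 fallers at 2 h and 3 to 5 risers at 4 h in WT, and 0 to 2 risers and 6 to 12 fallers at 2 h and 2 to 6 risers at 4 h in the knockout. It gave 0 to 1 lower differences at 4 h, 2 to 15 higher at 8 h, 22 to 33 at 16 h and 34 to 48 at 24 h, 0 to 1 higher and 9 to 15 lower in the untreated knockout, 2 to 3 lower in the knockout at 24 h, and 2 to 4 (WT) and 1 to 2 (knockout) falling from 8 to 24 h.

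Among 75 results of single named genes, calls and directions stayed for 75 without the filter, 74 with RLE scaling, 74 with only the compared groups, 72 with DESeq2, 50 with log2(TPM + 1) and 64 when the third TPM column of the untreated knockout was left out. Directions turned for ATP5G3 in the knockout at 24 h (−0.016) and for the genotype difference of SDHD at 24 h (−0.007), both with either TPM pseudocount and with adjusted p of 0.82 and 0.98 in limma. Whether replicate numbers pair the wells was not settled. In 0 of 14 contrasts were all pair correlations over 0.1 (range −0.125 to 0.169). Yet 26 of 36 libraries correlated best, on average, with libraries of their own number in other groups. With 3 numbers, that is more than an even share. With the replicate block in edgeR the 24 h difference of SDHD was 0.18 with an adjusted p of 0.055, and NDUFA6-AS1 in WT was −0.26 with an adjusted p of 0.041, while the other 73 named calls stayed. With 3 wells a group, calls on changes near 0.1 in log2, such as those of ATP5E and NDUFV2 in WT, depended on single wells.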
